A study of Mus musculus with 8 samples.

Results

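Sebaceous gland lipid genes are a set of 32 mouse genes for making, storing and marking the oily secretion of the gland that empties into the hair canal, here measured in whisker follicles. The members were listed by name and sorted by step, giving 5 genes of fatty acid elongation, 7 of desaturation and hydroxylation, 3 of fatty acid activation and fatty alcohol making, 8 of ester making, 4 of lipid droplets and fatty acid binding, and 5 other markers of the gland. A probe was matched for 31 of them, all but Far1. Of these, 30 were measured well enough to enter the test, out of 25352 genes tested in all, 16132 of them with a symbol. The remaining one, Far2, which reduces fatty acids to fatty alcohols, did not exceed background clearly on a single one of the 8 arrays, so neither fatty alcohol enzyme was measured.

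The E7386 group comprised 4 samples from female ApcMin/+ mice dosed orally with 30 mg/kg E7386, 2 times per day, over 4 cycles that each had 5 dosing days and 2 rest days, beginning at 8 weeks of age, with tissue taken 6 h after the last dose. The vehicle group comprised 4 samples from female ApcMin/+ mice given vehicle. Age, dosing schedule and time of tissue collection are not stated for that group. Both groups therefore carry the Min allele of Apc, which truncates a negative regulator of Wnt signalling, and no mice with intact Apc were included. E7386 is known as an oral inhibitor of the interaction of beta-catenin with its coactivator CBP. Each sample was hybridised to its own 1-colour array. The labels do not state whether samples of a group came from separate animals, so a p-value here measures the spread over these arrays alone, and that spread may be technical.

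Sebocytes fill with lipid and burst, and sebum is the result. Fatty acids are lengthened by the ELOVL enzymes, given double bonds by the SCD and FADS desaturases, activated to acyl-CoA, and joined to alcohols. Joining to fatty alcohols gives wax esters, joining to glycerol gives triglycerides and joining to cholesterol gives sterol esters. In mice, loss of Scd1 or Elovl3 disturbs the gland or its lipids, and wax esters are a main product of mouse sebum.

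All 8 arrays lie on 1 slide, and the arrays of each group fill a row of their own, so slide row and treatment cannot be told apart. The 75th percentile of the processed signal lay between 397.3 and 535.8 on E7386 arrays and between 490.1 and 569.1 on vehicle arrays, and all values below are log2 signals relative to that percentile. Between 61.5% and 61.9% of the spots for mouse transcripts were well above background on E7386 arrays, against 62.2% to 64.7% on vehicle arrays. The number of arrays limits the precision. Levels of different genes are not set against each other, since each probe has its own brightness. Of 11 sebaceous marker genes, 11 were well above background on all 8 arrays, and so were 29 of the 31 members with a probe. All of these markers but Pparg are themselves members, so their detection is no separate measure of the gland in the tissue. The arrays differed in the amount of skeletal muscle signal. The mean log2 level of 14 muscle markers was 1.85, 2.61, 4.65 and 4.76 on E7386 arrays 1 to 4 and 1.57, 3.95, 4.47 and 4.67 on vehicle arrays 1 to 4, so E7386 replicates 1 and 2 and vehicle replicate 1 were poor in muscle.

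Of the 30 members tested, 1 rose and 0 fell with E7386 at a Benjamini-Hochberg adjusted p under 0.05 over all genes (limma), against a background of 0.753% of all genes called higher and 0.367% called lower. At an unadjusted p under 0.05 there were 6 members, or 20% of those tested, beside 15.2% of all genes. The member that rose was Dgat2l6, of the ester making step. Means were higher with E7386 for 21 members and lower for 9, beside 52% of all genes with a higher mean. The median log2 change was 0.15, beside 0.0088 over all genes tested, and it was 0.074 without E7386 replicate 4. Keratin markers of hair shaft and inner root sheath, other parts of the follicle, had higher means for 8 of 10 genes and a median of 0.37. By limma 0 were called and 0 had an unadjusted p under 0.05. Every measured shaft keratin had a higher mean, while the inner sheath keratins Krt71, Krt25 and Krt27 had changes of 0.054, -0.028 and -0.050. The summed level of the list was 3706 to 5474 on E7386 arrays and 2450 to 4976 on vehicle arrays. Of the 12 markers listed, 10 were measured, none of them at 0. The part of this hair keratin difference in the members' values was not tested. The groups of arrays did not overlap for 4 members that were higher with E7386 (Dgat2l6, Awat1, Mogat1 and Acsbg1), where 4.82% of all genes were so, and for 1 member that was lower (Scd2), where 5.7% of all genes were so. The median change by step was 0.21 for ester making, 0.16 for elongation, 0.12 for desaturation and hydroxylation, 0.21 for lipid droplets and binding, and -0.017 for the other gland markers. Leaving out 1 array moved the elongation median to 0.10 (without vehicle replicate 2) and that of desaturation and hydroxylation to -0.0025 (vehicle replicate 3 left out), 0.044 (E7386 replicate 4 left out) and 0.060 (vehicle replicate 4 left out). In bulk tissue, fewer cells of a type and less RNA per cell cannot be told apart. Over all genes, 191 were called higher and 93 lower, and higher genes made up 67.3% of the calls, against 52.3% of 258 calls when arrays were scaled by their median.

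**Figure D1:**
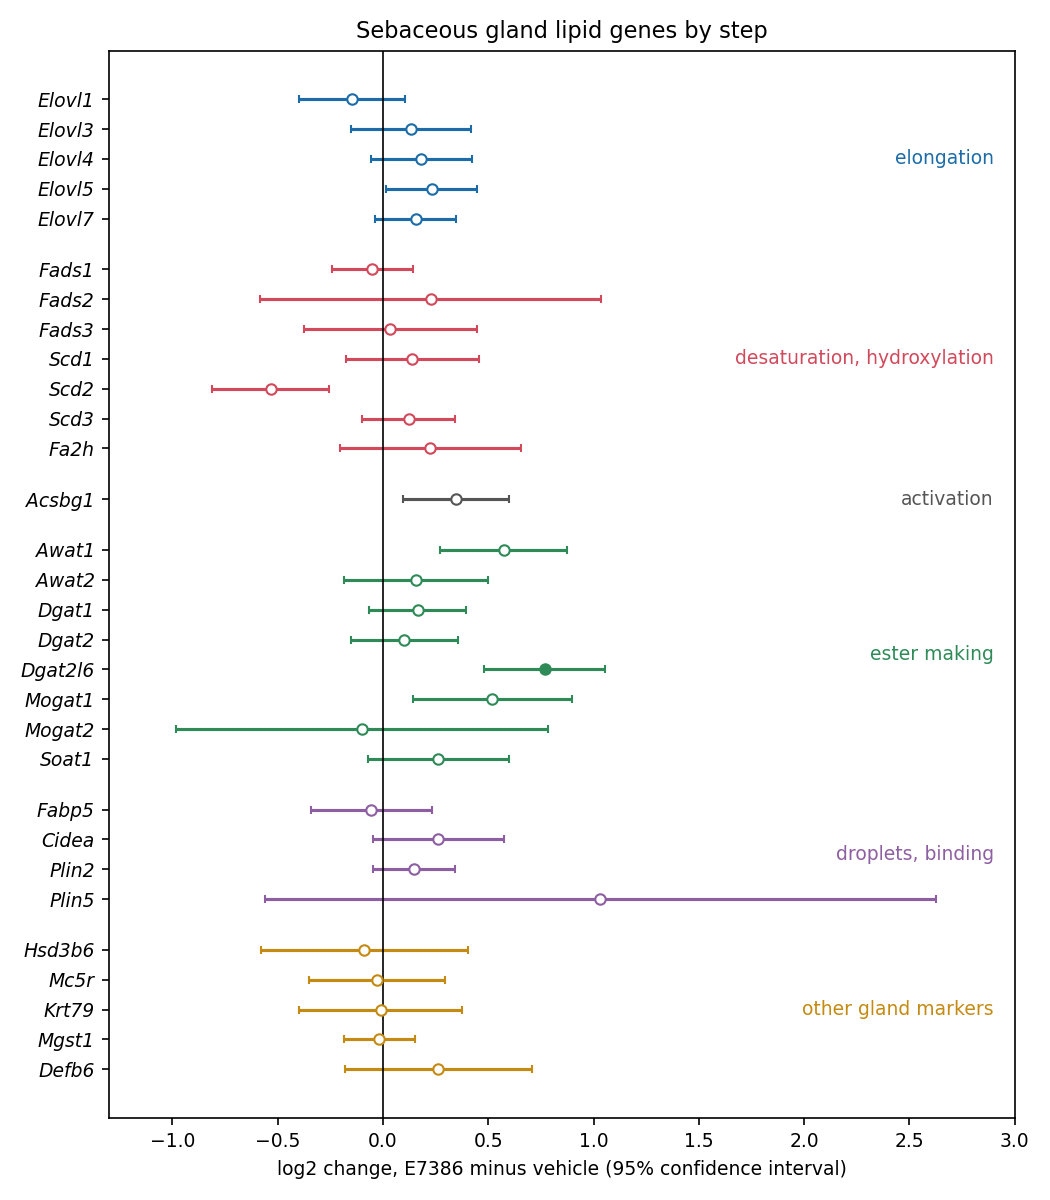
Log2 change of each tested member, E7386 minus vehicle (x axis), with its 95% confidence interval from limma, grouped by step down the page (n = 4 arrays per group). The filled point is the only member past an adjusted p of 0.05, Dgat2l6 at 0.77, and Scd2 at -0.53 is the only member whose interval lies wholly below 0.

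Ester making held the single called member. Dgat2l6, an acyltransferase of the DGAT2 family that also holds the wax synthases, had log2 signals of 1.11, 1.103, 1.33 and 1.40 on the E7386 arrays, against 0.45, 0.19, 0.67 and 0.56 on the vehicle arrays. Every E7386 array lay above every vehicle array. The rise was 1.70-fold, a log2 change of 0.77 (SE 0.13, 95% confidence interval 0.48 to 1.05, limma adjusted p = 0.0339). The call was lost whichever of the 8 arrays was left out, with log2 changes of 0.67 to 0.84 and adjusted p of 0.0546 to 0.124, and it held in 11 of 22 alternative settings in all.

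Awat1 makes wax esters from fatty alcohols and is the next protein-coding gene to Dgat2l6 on chromosome X in the RefSeq annotation of GRCm38.p6. Its signal was 1.97, 1.97, 2.31 and 2.34 on the E7386 arrays, against 1.48, 1.37, 1.77 and 1.68 on the vehicle arrays. These groups did not overlap either, but the log2 change of 0.57 (SE 0.13, 95% confidence interval 0.27 to 0.88) missed the threshold (limma adjusted p = 0.0940). Awat2, another wax synthase, has 2 protein-coding genes between it and Dgat2l6 on the same chromosome. It was at -3.02, -2.63, -2.79 and -2.74 with E7386 and at -3.15, -3.21, -2.79 and -2.66 with vehicle. Its groups overlapped, and the log2 change of 0.16 had an interval of -0.19 to 0.50.

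The promoters of Dgat2l6 and Awat1 are shown because these neighbouring genes had the largest log2 changes of the step. They run from 250 bases before to 50 after the start, on the plus strand of GRCm38.p6 as given by RefSeq, at chrX:100524588-100524887 for Dgat2l6 and chrX:100571997-100572296 for Awat1. Capitals mark matches on either strand to AGGTCA, a half-site of PPAR and other nuclear receptors, or to AGAACA, a half-site of the glucocorticoid and androgen receptors.
Dgat2l6: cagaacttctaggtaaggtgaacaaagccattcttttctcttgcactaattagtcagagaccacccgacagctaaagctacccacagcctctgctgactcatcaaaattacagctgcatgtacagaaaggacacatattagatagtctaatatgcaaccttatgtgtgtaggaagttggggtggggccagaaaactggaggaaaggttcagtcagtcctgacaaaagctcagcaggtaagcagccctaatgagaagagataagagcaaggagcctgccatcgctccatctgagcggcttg
Awat1: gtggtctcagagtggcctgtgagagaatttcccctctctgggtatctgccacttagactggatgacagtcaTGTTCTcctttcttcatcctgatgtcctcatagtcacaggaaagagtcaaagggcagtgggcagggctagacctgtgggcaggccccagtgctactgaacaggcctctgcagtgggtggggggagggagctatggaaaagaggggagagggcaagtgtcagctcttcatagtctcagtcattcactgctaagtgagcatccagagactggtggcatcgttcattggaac
The Awat1 window holds 1 match to AGAACA, read as TGTTCT on the printed strand, and 0 to AGGTCA. The Dgat2l6 window holds 0 of either. AGGTCA was found in 16.3% and AGAACA in 19.0% of 32841 promoters of that length, and each was found in 4 of the 25 promoters listed for the 21 members that the table holds. A match is a description of these letters and no evidence of binding.

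The glycerolipid enzymes of this step gave smaller or less even differences. Mogat1 adds a fatty acid to monoacylglycerol. It had signals of -4.31, -3.63, -4.10 and -4.29 with E7386, against -4.60, -4.80, -4.40 and -4.61 with vehicle, without overlap. Its processed signals were low, 20.3 to 43.2 with E7386 and 17.6 to 24.9 with vehicle, though well above background on all arrays. The log2 change of Mogat1 was 0.52 (SE 0.16, limma adjusted p = 0.193), and 0.27 to 0.60 over the alternative settings. Mogat2, of the same activity, was well above background on 3 of 4 arrays of each group and its change of -0.10 had an interval of -0.98 to 0.78. The triglyceride enzymes Dgat1 and Dgat2 had log2 changes of 0.17 and 0.10, with adjusted p of 0.487 and 0.724. Soat1, which esterifies cholesterol in the gland, had 0.26 (SE 0.14, adjusted p = 0.436). In all, 7 of the 8 means of the step were higher with E7386, beside 52% over all genes, and 3 members had an unadjusted p under 0.05, or 37.5%, beside 15.2% of all genes.

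**Figure D2:**
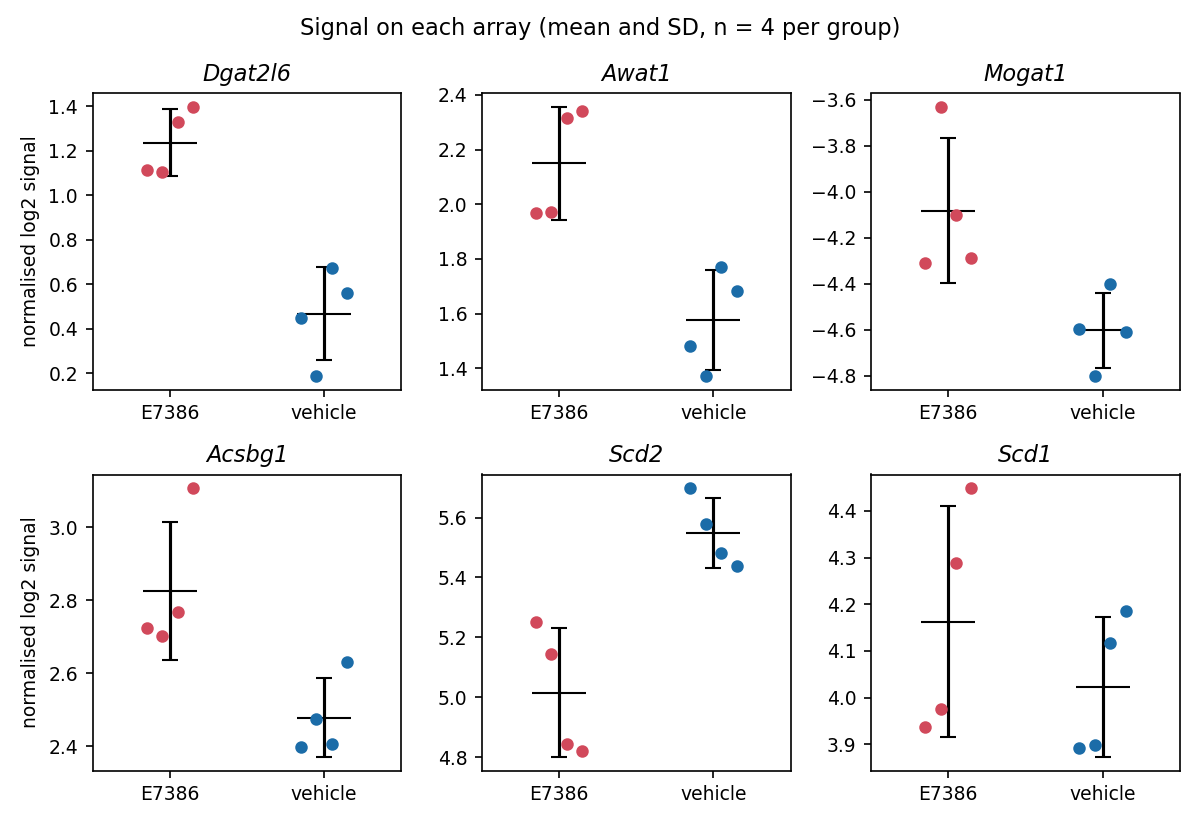
Normalised log2 signal (y axis) on each array for 6 members, with E7386 on the left and vehicle on the right of each panel, points for arrays and black marks for the mean and SD (n = 4 per group). Dgat2l6, Awat1, Mogat1 and Acsbg1 have every E7386 array above every vehicle array, Scd2 has every E7386 array below, and Scd1 overlaps.

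Acsbg1, which activates long fatty acids to acyl-CoA and is the measured member of the activation and fatty alcohol step, was at 2.73, 2.70, 2.77 and 3.11 with E7386, against 2.40, 2.48, 2.41 and 2.63 with vehicle. E7386 replicate 4 was well above the other arrays, and the lowest E7386 value still lay above the highest vehicle value. Its log2 change was 0.35 (SE 0.11, limma adjusted p = 0.199).

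The desaturases did not move together. Scd2 is a stearoyl-CoA desaturase found in many tissues besides the gland. Its signal was 5.25, 5.15, 4.84 and 4.82 with E7386, against 5.70, 5.58, 5.48 and 5.44 with vehicle. All E7386 arrays lay below all vehicle arrays, a log2 change of -0.53 (SE 0.12, 95% confidence interval -0.81 to -0.26), or 1.45-fold lower, short of the threshold (limma adjusted p = 0.0913). Scd1, the main desaturase of the gland in mice, was at 3.94, 3.98, 4.29 and 4.45 with E7386 and at 3.89, 3.90, 4.12 and 4.18 with vehicle, overlapping, with a change of 0.14 (interval -0.18 to 0.46). Scd3, a desaturase described in mouse sebocytes, gave 0.12 on its brightest probe (interval -0.10 to 0.34) and 0.44 and 0.29 on its other probes. The Scd genes are close paralogs that lie beside each other on chromosome 19, and signal shared between their probes was not tested.

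The FADS enzymes, which desaturate polyunsaturated fatty acids or sphingoid bases, had small mean differences, and the arrays varied widely for Fads2 in both groups and for Fads3 in the vehicle group. Fads2 was at -0.55, -0.97, -0.97 and -0.11 with E7386 and at -0.30, -0.27, -1.57 and -1.38 with vehicle. Vehicle replicates 3 and 4 were low and replicates 1 and 2 high, so its change of 0.23 had an interval of -0.58 to 1.03. Fads3 showed the same division of vehicle arrays, at 4.14 and 4.20 for replicates 1 and 2 and 3.41 and 3.65 for replicates 3 and 4, and a change of 0.035 (interval -0.38 to 0.45). The hair shaft and inner sheath keratins had mean log2 levels of 8.67, 8.85, 7.72 and 7.99 on vehicle arrays 1 to 4. On E7386 arrays 1 to 4 these were 8.66, 8.40, 8.37 and 8.93. The part of hair keratin signal in the Fads2 and Fads3 values was not tested. Fads1 was evenly measured, at 0.71 to 0.93 with E7386 and 0.80 to 1.03 with vehicle, and had a change of -0.050 (interval -0.24 to 0.14). Fa2h, which hydroxylates fatty acids for skin and myelin lipids, was at 3.65, 3.74, 4.24 and 4.46 with E7386 and 3.70, 3.69, 3.81 and 3.98 with vehicle. E7386 replicate 1 lay below all vehicle arrays, replicate 2 among them and replicates 3 and 4 above them, and the change of 0.22 had an interval of -0.21 to 0.65. With limma, 0 members of this step were called and 1, Scd2, had an unadjusted p under 0.05.

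Elongation differed by small amounts. Elovl5, which lengthens polyunsaturated fatty acids, was at 2.53, 2.40, 2.53 and 2.67 with E7386, against 2.16, 2.24, 2.36 and 2.46 with vehicle, which overlapped. Its log2 change of 0.23 (SE 0.093) was the largest of the step and did not pass (limma adjusted p = 0.294). Elovl4, which makes the longest chains of the skin barrier, was at 4.71, 4.69, 4.86 and 4.95 with E7386 and at 4.68, 4.38, 4.72 and 4.69 with vehicle. Its change was 0.18 (interval -0.058 to 0.42). The other, dimmer probe of Elovl4 gave 0.26, at 3.03 to 3.33 with E7386 and 2.74 to 3.00 with vehicle, without overlap. That probe does not enter the counts of members. Elovl7 had 0.16 (interval -0.036 to 0.35). Elovl3, an elongase of sebaceous gland and hair follicle, was at 3.08, 2.78, 3.04 and 3.23 with E7386, against 3.12, 2.80, 2.73 and 2.95 with vehicle. Its values overlapped almost wholly, and its change was 0.13 (interval -0.15 to 0.42). Elovl1, which lengthens saturated chains, was the only elongase with a lower mean, at -0.15 on its brighter probe (interval -0.40 to 0.10) and -0.19 on the other. Of the 5 elongases, 0 were called by limma and 1, Elovl5, had an unadjusted p under 0.05.

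Among the lipid droplet genes, Plin5 varied most between arrays. Plin5, a droplet coat protein of tissues that burn fat, was at -0.44, -0.25, 1.61 and 1.89 with E7386 and at -1.77, -0.20, -0.040 and 0.69 with vehicle. E7386 replicates 3 and 4 were the highest, vehicle replicate 1 was the lowest, and the groups overlapped. Its log2 change of 1.03 was the largest of any member and the least certain (SE 0.69, interval -0.56 to 2.62, limma adjusted p = 0.529). Its size rested on single arrays, being 0.55 when vehicle replicate 1 was dropped, 0.64 when E7386 replicate 4 was dropped and 0.73 when E7386 replicate 3 was dropped, each below the change of Dgat2l6 in the same fit. The level of Plin5 moved with the muscle markers. Their summed level, in multiples of the 75th percentile, was 186.7 and 285.0 on E7386 replicates 1 and 2 and 1078 and 1197 on replicates 3 and 4, against 142.8 on vehicle replicate 1 and 740.4 to 1075 on the other vehicle arrays. All 14 muscle markers were well above background on all 8 arrays, and none is at 0. With the mean muscle level as a covariate, chosen after seeing the data, the change of Plin5 was 1.18 (SE 0.16, adjusted p = 0.0218), and without the 3 arrays poor in muscle it was 1.60 (adjusted p = 0.147).

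**Figure D3:**
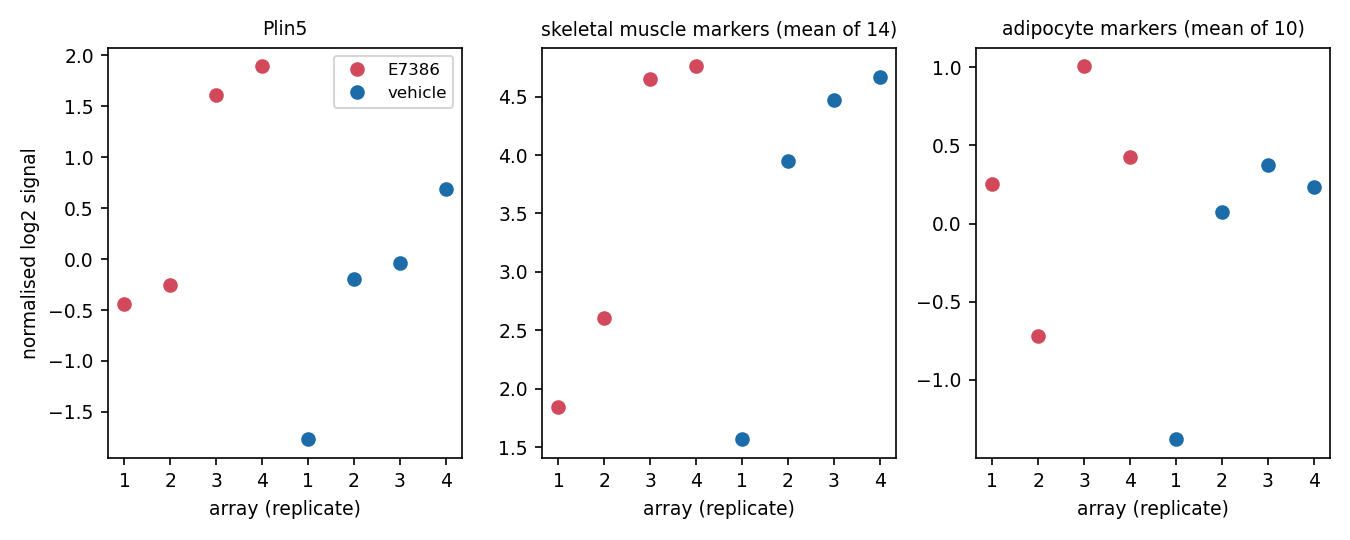
Normalised log2 signal (y axis) on each array (x axis, E7386 replicates at the left and vehicle replicates at the right) for Plin5, the mean of 14 skeletal muscle markers and the mean of 10 adipocyte markers. E7386 replicates 1 and 2 and vehicle replicate 1 are low in muscle markers, and vehicle replicate 1 is lowest in all 3 panels.

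Cidea, a droplet protein of sebocytes and brown fat, was at 4.34, 4.32, 4.72 and 4.84 with E7386, against 4.18, 4.24, 4.36 and 4.39 with vehicle. Only E7386 replicates 3 and 4 lay above all vehicle arrays, and the change was 0.26 (interval -0.048 to 0.58). Plin2, which coats droplets in most cells, lay between 3.81 and 3.91 with E7386. With vehicle it was at 3.63, 3.64 and 3.65 on replicates 1, 2 and 4 and at 3.92 on replicate 3, so that 1 vehicle array made the groups overlap, and the change was 0.15 (interval -0.048 to 0.34). Fabp5, the epidermal fatty acid binding protein, had a change of -0.056 (interval -0.34 to 0.23). With limma, 0 of these 4 members were called and 0 had an unadjusted p under 0.05. Some members are also expressed in fat. The summed level of the 10 adipocyte markers, all measured, was 69.7 to 124.4 on E7386 arrays and 53.3 to 98.7 on vehicle arrays, and none is at 0. Most of that sum on every array came from the bright Fabp4 probe. Its log2 level was 6.36 on vehicle replicate 1 and 5.07 on vehicle replicate 3. The mean log2 level of the 10 markers ordered the arrays differently. It was 0.252, -0.722, 1.005 and 0.426 on E7386 arrays 1 to 4 and -1.379, 0.072, 0.375 and 0.233 on vehicle arrays 1 to 4. Vehicle replicate 1 was lowest by the mean, while vehicle replicate 3 was lowest by the sum. Means were higher with E7386 for 6 of these 10 markers and lower for 4, with a median log2 change of 0.28. Plin4, a droplet coat protein of fat and muscle, had the largest change of them, 1.55 (limma adjusted p = 0.108). It passed with the muscle covariate (1.64, adjusted p = 0.00217) and without the 3 muscle-poor arrays (1.89, adjusted p = 0.0288). The part of adipocyte signal in the members' differences was not tested.

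The remaining gland markers showed small mean differences. Krt79, a keratin of the gland duct and upper follicle, was at 8.00, 8.33, 7.85 and 8.01 with E7386 and at 8.07, 8.13, 8.38 and 7.64 with vehicle, a change of -0.011 (interval -0.40 to 0.38). Mc5r, a melanocortin receptor needed for normal sebum output in mice, had -0.029 (interval -0.35 to 0.29). Mgst1, a membrane-bound glutathione transferase, was the most tightly measured member of the set, at -0.017 (interval -0.18 to 0.15) on one probe and 0.00047 on the other. Hsd3b6, a steroid dehydrogenase, had -0.089 (interval -0.58 to 0.40). Defb6, a defensin peptide, was at 6.39, 6.26, 5.93 and 5.99 with E7386, against 6.03, 5.81, 6.28 and 5.41 with vehicle, overlapping, with a change of 0.26 (interval -0.18 to 0.71). By limma 0 of the 5 were called and 0 had an unadjusted p under 0.05. Their median of -0.017 stands beside 0.16 for the 25 tested members of the lipid steps, as a description with no test of the difference. The 11 sebaceous marker genes named above, which include genes of the lipid steps, had a median of 0.13 with 0 called by limma. The median of the 5 other gland markers changed sign with the array left out. It was -0.044 in the absence of E7386 replicate 4 and 0.042 in the absence of vehicle replicate 3.

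Among the E7386 arrays, replicates 3 and 4 were both above replicates 1 and 2 for 17 of the 30 members and both below them for 3 (Defb6, Elovl7 and Scd2). E7386 replicate 4 gave the highest value of its group for 18 members, and vehicle replicate 4 that of its group for 13. E7386 replicates 3 and 4 were also the E7386 arrays rich in muscle signal. They had the lowest 75th percentiles too, 440.9 and 397.3, against 523.6 and 535.8 on replicates 1 and 2. The share of all genes divided in this way is not given, and the part of scaling or muscle in the division was not tested. With the muscle covariate, limma called 3 members higher and 1 lower, where 330 genes were higher and 283 lower of 25352 tested. The log2 changes were 0.78 for Dgat2l6 (adjusted p = 0.0241), 0.59 for Awat1 (adjusted p = 0.0346), 1.18 for Plin5 and -0.56 for Scd2 (adjusted p = 0.0136). Without the 3 arrays poor in muscle, 0 members were called by limma and 9 had an unadjusted p under 0.05. The share of all genes under 0.05 in that fit is not given, so these 9 cannot be set against it. The log2 changes were 0.89 for Dgat2l6 (adjusted p = 0.153), 0.72 for Awat1 and -0.67 for Scd2.

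**Figure D4:**
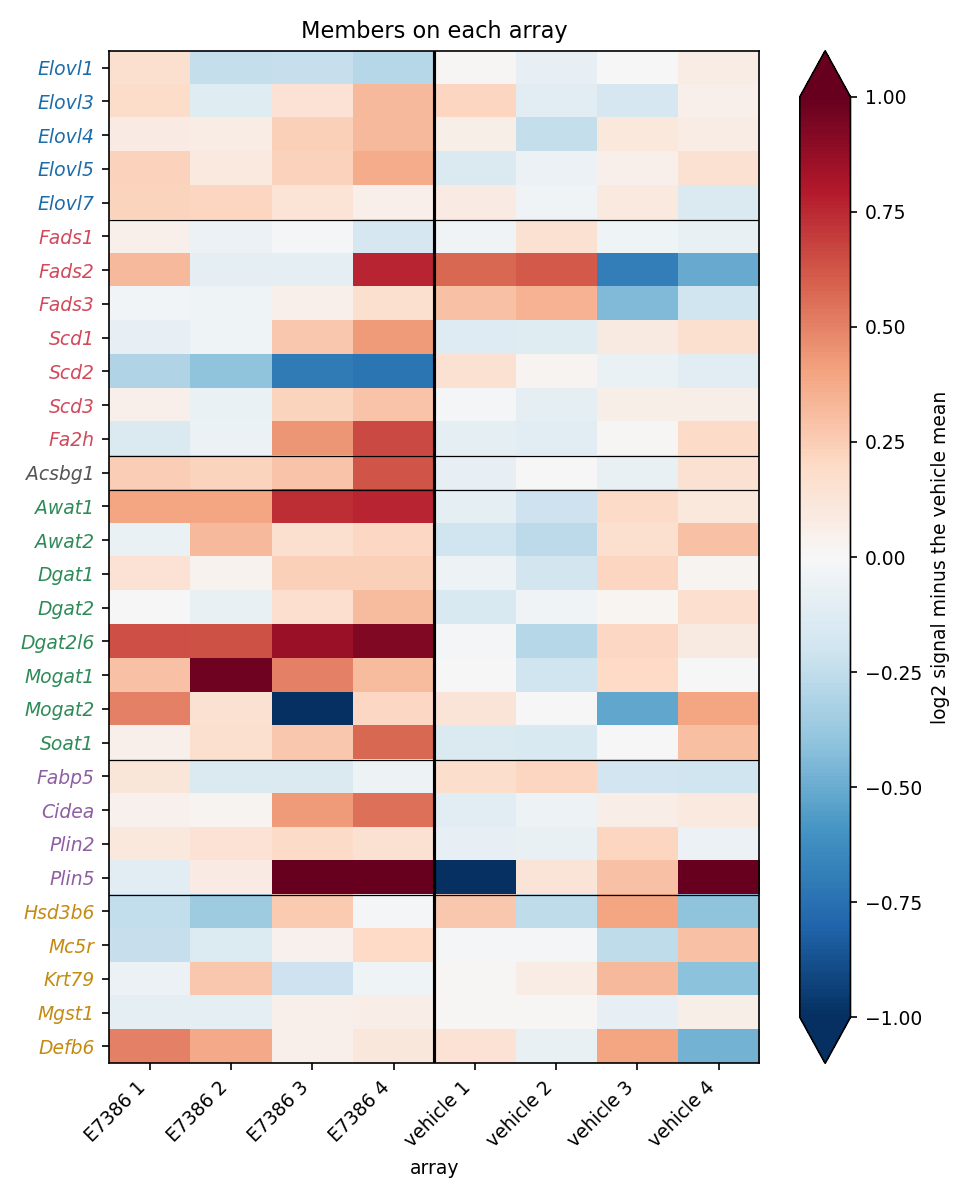
Log2 signal minus the vehicle mean (colour, cut at -1 and 1) for the 30 tested members (rows, by step) on the 4 E7386 arrays at the left and the 4 vehicle arrays at the right. Dgat2l6 and Awat1 are red and Scd2 is blue on all E7386 arrays, while Plin5 and Fa2h are reddest on E7386 replicates 3 and 4.

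The supply of fatty acids to these steps was described by 18 measured genes of synthesis, elongation partners and activation. With limma, 0 were called in either direction and 4 had an unadjusted p under 0.05, or 22.2%, beside 15.2% of all genes. These 4, Acaca, Fasn, Acly and Hacd1, were all lower with E7386. The groups of arrays did not overlap for these 4 of the 18, where 5.7% of all genes were lower without overlap. The median log2 change of the 18 was -0.036, with 13 lower and 5 higher means. Fasn, fatty acid synthase, was at -0.52, -0.46, -0.69 and -0.58 with E7386, against -0.041, -0.36, -0.16 and -0.17 with vehicle. These groups did not overlap, and its change of -0.38 (SE 0.091) missed the threshold (adjusted p = 0.106). Hacd1, a dehydratase of the elongation cycle, had -0.39 (SE 0.097, adjusted p = 0.111). Of 14 genes of glycerolipid, ceramide and sterol ester making, limma called 0, and the median was 0.0052. An unadjusted p under 0.05 was found for 3 of them, or 21.4%, beside 15.2% of all genes. Those with the smallest p were Agpat1, which acylates lysophosphatidic acid, at -0.31 (adjusted p = 0.112), and Gpat3, which acylates glycerol phosphate, at 0.32 (adjusted p = 0.232).

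Regulators of the gland and of lipid synthesis were not called by limma in either direction, 0 of 15, and 5 had an unadjusted p under 0.05, or 33.3%, beside 15.2% of all genes. Srebf1, a transcription factor that drives fatty acid synthesis genes, was at -1.90, -1.69, -2.02 and -1.79 with E7386, against -0.87, -1.48, -0.99 and -0.89 with vehicle. Vehicle replicate 2 was nearest to the E7386 arrays, and the groups did not overlap. Its change of -0.80 (SE 0.15) lay just outside the threshold (adjusted p = 0.0536) and passed it in 9 of 22 alternative settings, with values from -0.94 to -0.57. Rxra, the partner of PPARs and other nuclear receptors, had 0.43 (SE 0.10, adjusted p = 0.104). Pparg, the receptor that drives sebocyte differentiation, was at -0.031, 0.026, 0.15 and 0.34 with E7386 and at -0.039, -0.19, 0.34 and 0.28 with vehicle, a change of 0.022 (interval -0.31 to 0.35).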

How the data were processed

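Total RNA of 8 whisker follicle samples was labelled with Cy3 and hybridised to 1-colour Agilent arrays, per the labels' protocols. The deposited scanner files hold spot intensities, which the authors extracted with Feature Extraction 11.5.1.1 (per the file headers). The submitters' processing notes name version 11. Its processed signal has the background taken off, per the file headers. The deposited value table holds log2 values whose columns share the same sorted values, and served as an alternative.

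Non-uniform spots were left out (none was on a member), log2 processed signals were averaged over the spots of a probe, and the 75th percentile over the probes for mouse transcripts was subtracted on each array. Of 55681 probes, 27509 got a symbol through the accession, without its version, in RefSeq's GRCm38.p6 gene table. The arrays were designed on another build, so probe positions are not given. The probe with the highest mean over 8 arrays stood for its gene, and 27 members have 1 probe and 4 have more. Genes entered the test if 3 or more of the 4 arrays of either group measured that probe well above background.

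E7386 was compared with vehicle with limma (version 3.58.1, R 4.3.3, functions lmFit and eBayes) over 25352 genes with Benjamini-Hochberg adjustment. An adjusted p under 0.05 is a call. Of the 25352, 16132 had a symbol. Each other entry was counted as a gene under its own identifier, and whether it repeats a named gene was not checked. Shares of all genes are taken over this mix. No set test was run. The fit was tested on simulated data. All 32 members are accounted for. From the other lipid lists the 2 genes with the smallest p are named, and Pparg as a gland marker, and the list of lipid breakdown genes is not reported here. Genes of epidermis, of hair shaft with inner root sheath, and of immune cells served as further marker lists. In these, 0 were called of 10, 10 and 6 measured, with medians of 0.039, 0.37 and -0.16. For the 14 muscle and 10 adipocyte markers 0 were called, with medians of -0.18 and 0.28. The members and lists were chosen with earlier results of these data known. Samples with the same replicate number did not deviate together in every pair, with correlations of 0.49, -0.17, 0.29 and 0.18 over all genes, so no block was used.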

Additional observations from a re-analysis of the deposited data

Results flagged for a closer look

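In 60 groups of 4 arrays, 1 for each tested member and treatment, 4 held an array whose gap to the others was large for the range of its group. Chance gives about 1 in 20 such groups. Acsbg1 was at 3.11 on E7386 replicate 4, against 2.70 to 2.77 on the other E7386 arrays. Elovl1 was at 5.32 on E7386 replicate 1, against 4.88 to 4.93. Elovl4 was at 4.38 on vehicle replicate 2, against 4.68 to 4.72 on the other vehicle arrays. Plin2 was at 3.92 on vehicle replicate 3, against 3.63 to 3.65. The causes were not tested.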

How the results depend on the processing

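Of 30 tested members, 21 kept their direction in all alternatives run, 19 of them higher with E7386 and 2 lower (Elovl1 and Scd2). The other 9, none called in any setting, changed sign in at least 1. Of 22 alternatives, Dgat2l6 kept its call in 11 and lost it without a detection filter (adjusted p = 0.0715, with more genes tested), with the replicate number as a block (adjusted p = 0.0609), without the muscle-poor arrays and without each single array. Awat1, Plin5 and Scd2 were called in 1 each, the muscle covariate. As reported, 191 genes were higher and 93 lower, and 1 member was higher and 0 lower. No detection filter gave 112 higher and 41 lower genes and 0 members higher. The replicate block gave 50 higher and 9 lower genes and 0 members higher. Leaving out the 3 muscle-poor arrays gave 36 higher and 12 lower genes and 0 members higher, with medians of 0.25 for elongation and 0.25 for desaturation and hydroxylation. The muscle covariate gave 330 higher and 283 lower genes, with 3 members higher and 1 lower. Lower genes numbered 141 with normexp on median signals (offset 50) and 158 with trend and robust options. These muscle settings, normexp and a percentile over spots were chosen after seeing the data. Where limma called 0 members higher, 5 to 9 had an unadjusted p under 0.05, and the share of all genes in those fits is not given. Where 1 array was left out, higher genes ran from 67 (without E7386 replicate 3) to 158, lower genes from 21 to 82, members higher from 0 to 0, and the median of desaturation and hydroxylation from -0.0025 (without vehicle replicate 3) to 0.19. The causes of these differences between settings were not tested. Normexp on mean signals was not run because the scanner files give median signals. Dim members such as Mogat1 and Mogat2 are limited by signal over background.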
